A study of Homo sapiens with 40 samples.

Results

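The genes described here are 30 known transcriptional targets of the tumour suppressor p53, taken as a list of gene symbols and followed in every cell line in which the compound table gave a value. Of the 30 genes, 29 had values in at least 1 line and 24 in all 10 lines, out of 19280 genes with values in at least 1 line. SPATA18, a mitochondrial quality control protein, had no value in any line. FAS, TP53INP1, ZMAT3, MDM4 and PHLDA3 had values in some lines only. The authors listed a gene in a line only where it passed their expression filter, an FPKM of 1 per the labels, so the 24 genes are those that passed it throughout.

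p53 is a transcription factor that is held at a low level by the ubiquitin ligase MDM2 and accumulates after DNA damage or other stress. It then switches on genes that stop the cell cycle (CDKN1A), repair DNA (DDB2, XPC), favour cell death (FAS, TNFRSF10B) and alter metabolism (TIGAR), together with its own inhibitors (MDM2, PPM1D). Many of these genes also answer to other factors, so that their level is not a reading of p53 alone. Type I arginine methyltransferases, of which PRMT1 is the most active, place asymmetric dimethyl marks on arginines of histones and of RNA-binding proteins.

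RNA sequencing covered 10 non-small cell lung cancer lines in 40 libraries. Each line was exposed to GSK3368712, a type I arginine methyltransferase inhibitor, or to its vehicle DMSO, with 2 libraries per arm. Row labels of the authors' deposited table place NCIH1563, NCIH1975, NCIH522 and PC9 in lung adenocarcinoma (LUAD) and EBC1, LK2, NCIH226, NCIH520, SKMES1 and SW900 in lung squamous cell carcinoma (LUSC). The labels give no engineered allele and no spelled-out dose or time, and nothing in them tells whether both libraries of an arm came from different cultures. The p-values within a line therefore measure the spread between those libraries, which may be technical. Few of the 10 lineage markers checked went with the labelled subtypes, and no adenocarcinoma marker was listed in a larger share of LUAD than of LUSC lines. Of the squamous markers, SOX2 was listed in 1 of 4 LUAD and 4 of 6 LUSC lines, TP63 in 2 and 2, KRT5 in 1 and 2, KRT6A in 1 and 1, and DSG3 in none. Of the adenocarcinoma markers, KRT7 was listed in 4 LUAD and 6 LUSC lines, NKX2-1 in 1 and 3, NAPSA in 1 and 2, and SFTPB and SLC34A2 each in 0 and 1. The values are log2 fold changes of GSK3368712 over DMSO from the authors' deposited table, each with its standard error (SE) and adjusted p, and a positive value means higher with GSK3368712 if the row labels name the numerator first, which the values could not show. The sum of mean normalized counts per line was 57647556 to 108557964. The median SE over genes was 0.201 to 0.316 in the LUAD lines and 0.092 to 0.115 in the LUSC lines, and log2 fold changes tracked transcript length and GC content most closely in NCIH1563 (Spearman's rho across 9336 genes -0.30 with length and 0.43 with GC content).

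Across the 10 lines, the p53 targets did not move in 1 direction. A limma test of the mean log2 fold change against 0, with 1 value per line, called 4 of the 24 genes higher with GSK3368712 (GDF15, FDXR, CDKN1A and DRAM1) and 4 lower (DDB2, CCNG1, TIGAR and FBXO22) at an adjusted p of at most 0.05. The same test called 9.5% of all 9339 genes higher and 12.1% lower. These are bulk libraries, in which fewer cells expressing a gene and less RNA per cell cannot be told apart. Of the 24 means, 14 were positive and 10 negative, and their median was 0.04, against 0.00 over all genes. At an unadjusted p under 0.05, 11 of the 24 targets passed, against 34.6% of all genes. A random-effects meta-analysis called 5 targets higher and 8 lower, against 18.2% and 22.0% of all genes. With the 12111 genes that had values in at least 7 lines, 20.2% of genes were called, and the 6 targets called there were DDB2, TIGAR, CCNG1, FBXO22, FDXR and DRAM1. MDM4, ZMAT3, FAS and PHLDA3, which entered only that wider fit, had adjusted p-values of 0.855, 0.639, 0.941 and 0.298 by limma.

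**Figure D1:**
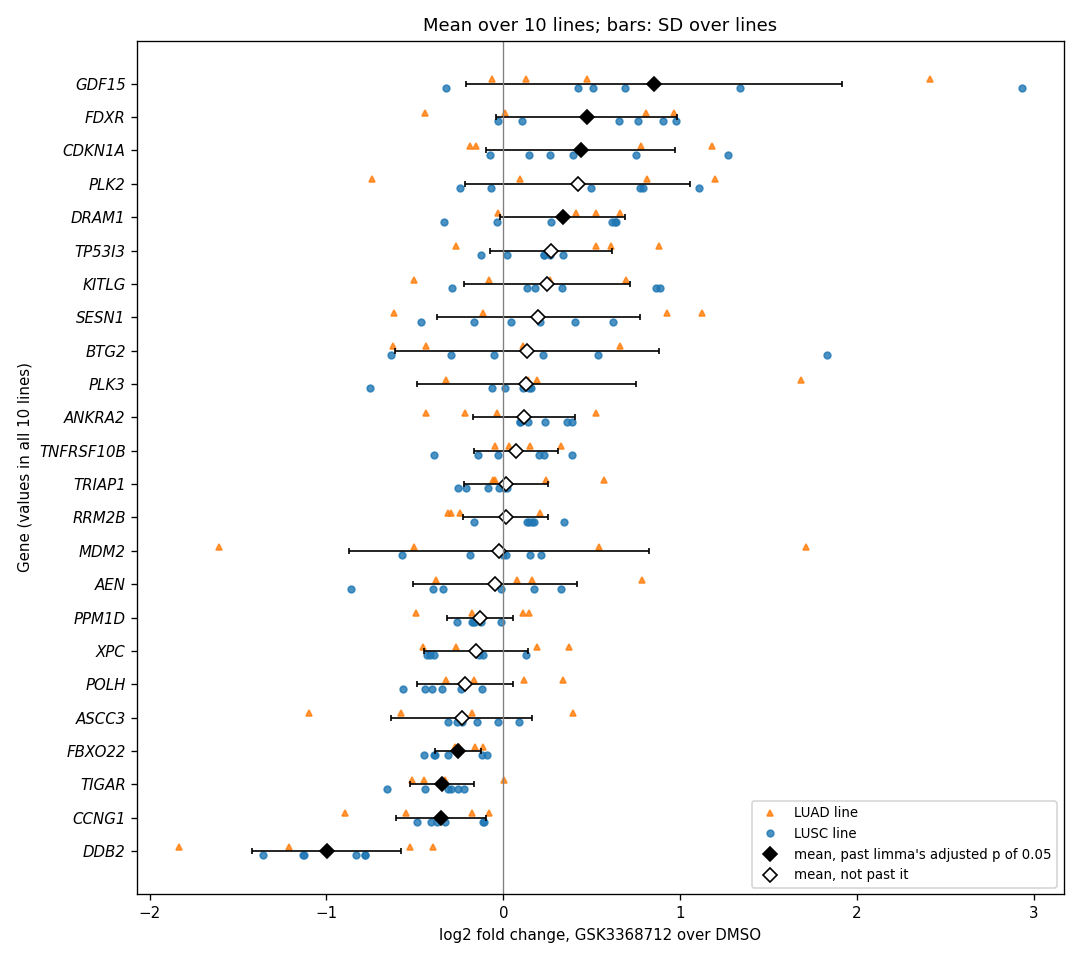
Log2 fold change of GSK3368712 over DMSO (horizontal axis) for each of the 24 p53 targets with values in all 10 lines, 1 row per gene. Triangles are LUAD lines, circles LUSC lines, diamonds the mean over 10 lines with its SD, and filled diamonds are means past limma's adjusted p of 0.05. DDB2 sits apart at -0.998, and GDF15 has the highest mean at 0.85.

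The 4 lower genes held their call in each of the 10 fits that left out 1 line, whereas the 4 higher genes did not. FDXR kept its call in 5 of those 10 fits, DRAM1 in 4, and CDKN1A and GDF15 in 3 each. The number of targets called higher was 0 without EBC1 or SW900, 1 without NCIH1975, LK2 or NCIH226, and 2 without NCIH520 or SKMES1.

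The promoters of 3 targets that hold the closest matches to the p53 consensus are shown, chosen by the match and not by the response. They belong to FDXR and GDF15, which rose across lines, and to AEN, which was called in both directions. RefSeq promoter windows of GRCh38.p14, reaching from 250 bases before to 50 after the gene's start, were available for 24 of the 30 targets (none for TNFRSF10B, TP53INP1, RRM2B, PHLDA3, FBXO22 and ASCC3). A window was counted where the consensus of 20 positions, on either strand, matched with at most 3 mismatches outside its invariant core C and G. That held for 3 of the 24 target windows and for 1.05% of 27305 promoters. Capitals mark the match, and each sequence is written 5′ to 3′ on the gene's strand.
AEN: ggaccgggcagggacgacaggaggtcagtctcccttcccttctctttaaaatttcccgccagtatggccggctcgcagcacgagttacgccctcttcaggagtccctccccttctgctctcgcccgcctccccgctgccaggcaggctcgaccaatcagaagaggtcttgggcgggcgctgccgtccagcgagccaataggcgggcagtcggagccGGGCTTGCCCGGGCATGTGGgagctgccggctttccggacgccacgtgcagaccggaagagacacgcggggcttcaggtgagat
FDXR: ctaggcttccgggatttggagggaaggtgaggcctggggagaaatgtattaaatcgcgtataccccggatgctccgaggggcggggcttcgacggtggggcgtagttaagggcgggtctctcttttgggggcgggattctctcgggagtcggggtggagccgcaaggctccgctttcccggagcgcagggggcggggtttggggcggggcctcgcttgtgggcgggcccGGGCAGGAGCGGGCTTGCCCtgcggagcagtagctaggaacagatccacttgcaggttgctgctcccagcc
GDF15: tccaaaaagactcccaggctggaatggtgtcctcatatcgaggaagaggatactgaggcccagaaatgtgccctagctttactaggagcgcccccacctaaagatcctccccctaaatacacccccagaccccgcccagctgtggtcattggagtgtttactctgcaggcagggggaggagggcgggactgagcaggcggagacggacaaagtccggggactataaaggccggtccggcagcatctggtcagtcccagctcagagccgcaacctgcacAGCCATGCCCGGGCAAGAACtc
The match lies at chr15:88621306-88621325 on the plus strand for AEN, with 2 mismatches. It lies at chr17:74872996-74873015 on the minus strand for FDXR, with 3 mismatches, and at chr19:18386186-18386205 on the plus strand for GDF15, also with 3. A match is a string of letters in this window and is no evidence of binding. The other 21 windows held no such match. The search allowed no gap within the consensus and took no alternative start of a gene. It therefore says nothing of gapped sites, of other starts or of sites farther away.

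Among the cell cycle brakes, CDKN1A, which encodes the cyclin-dependent kinase inhibitor p21, was higher across lines and CCNG1, which encodes cyclin G1, was lower. CDKN1A averaged a log2 fold change of 0.44 ± 0.53 (SD over 10 lines), positive in 7 lines, with limma's adjusted p = 0.0484. In the LUAD lines CDKN1A stood in the authors' deposited table at 1.18 in NCIH1563, 0.78 in NCIH1975, -0.16 in NCIH522 and -0.19 in PC9. In the LUSC lines the authors' deposited table gives CDKN1A at 0.15 in EBC1, 1.27 in LK2, 0.27 in NCIH226, 0.75 in NCIH520, -0.08 in SKMES1 and 0.40 in SW900. The authors' adjusted p called it higher in NCIH1563, LK2, NCIH226, NCIH520 and SW900 and lower in none, and the LUAD and LUSC values overlap throughout. The level of a gene is given here in ppm, its mean normalized count over both arms scaled to 1000000 such counts listed in a line. CDKN1A ran from 3.45 ppm in LK2 and 6.34 ppm in NCIH520 to 343 ppm in NCIH1563 and 350.3 ppm in NCIH226 by the authors' deposited table, so its largest fold change (LK2) stood at its lowest level and the next (NCIH1563) at a high one.

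CCNG1 averaged -0.35 ± 0.25 (SD over 10 lines) and was negative in all 10 lines, with limma's adjusted p = 0.00879. Its values in the authors' deposited table ran from -0.89 in PC9 through a median of -0.35 to -0.08 in NCIH522. The authors called it lower in PC9, EBC1, NCIH226, NCIH520 and SW900. The polo-like kinase gene PLK2 averaged 0.42 ± 0.64 without passing the test (limma's adjusted p = 0.0975). PLK2 was called in 6 lines of the authors' deposited table, higher in NCIH1975 (1.20), EBC1 (1.10), SKMES1 (0.77) and SW900 (0.50) and lower in NCIH1563 (-0.74) and NCIH226 (-0.25). Its mean was 0.55 without NCIH1563, where limma's adjusted p was 0.0140. Of the 10 fits that left out 1 line, this was the only 1 in which PLK2 passed. Limma's adjusted p for PLK2 reached 0.203 in the others. Its relative PLK3 was called in 2 lines of the authors' deposited table, higher in NCIH1563 (1.68) and lower in EBC1 (-0.76). BTG2, an antiproliferative partner of the mRNA deadenylation machinery, was called higher in EBC1 (1.83) and lower in NCIH1563 (-0.62), LK2 (-0.63) and NCIH226 (-0.29) in the authors' deposited table. Over the 5 brakes and 10 lines, 11 of 50 values were called higher and 11 lower, against 13.7% and 13.8% of the values of all genes in all lines.

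Of 48 values of feedback genes, 4 were called higher and 10 lower, against 13.7% and 13.8% of all values, and 1 of the 5 genes, FBXO22, fell across lines. FBXO22, the F-box subunit of a ubiquitin ligase, averaged -0.25 ± 0.13 (SD over 10 lines), was negative in all 10 lines and had limma's adjusted p = 0.00966. After a correction for transcript length and GC content the mean of FBXO22 was -0.22 with limma's adjusted p = 0.0660. The NCIH1563 value of FBXO22 was then 0.39. By the authors' deposited table, FBXO22 lay between -0.45 in NCIH226 and -0.09 in LK2 and was called lower in EBC1, NCIH226, NCIH520 and SKMES1.

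MDM2, the main ubiquitin ligase of p53 and a classical target, had opposite extremes in 2 LUAD lines and a mean near 0 (-0.02 ± 0.85, SD over 10 lines, limma's adjusted p = 0.958). The LUAD values of MDM2 in the authors' deposited table were -1.61 in NCIH1563 (SE 0.70), 1.71 in NCIH1975 (SE 0.65), 0.54 in NCIH522 and -0.50 in PC9. Its LUSC values in the authors' deposited table were -0.57 in EBC1, 0.02 in LK2, -0.19 in NCIH226, 0.22 in NCIH520, 0.15 in SKMES1 and 0.00 in SW900. The authors called MDM2 lower in NCIH1563 (adjusted p = 0.0448) and EBC1 (adjusted p = 9.05e-08) and higher in no line, with an adjusted p of 0.0875 in NCIH1975, all by DESeq2 in the authors' deposited table. MDM2 was thus called lower in NCIH1563, where CDKN1A was called higher. Fold changes tracked length and GC content most closely in that line. Corrected for both, the values there were -0.88 for MDM2 and 0.79 for CDKN1A. MDM2, TIGAR and PHLDA3 each share exon sequence with another annotated gene on the same strand in GENCODE 29, so their values may hold reads of both. Whether counting used strand is not given, so overlaps on the opposite strand may matter too. Among the targets called across lines, CDKN1A, DRAM1, TIGAR and FBXO22 have such an overlap, as do several other targets.

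MDM4, an MDM2 relative that covers the activation domain of p53, was called higher in EBC1 (0.43) and LK2 (0.65) and lower in NCIH1563 (-0.94) and NCIH226 (-0.36) in the authors' deposited table. ZMAT3, an RNA-binding protein, was called higher in EBC1 (0.88) and NCIH226 (0.45) and lower in NCIH1563 (-1.32) in the authors' deposited table. PPM1D, a phosphatase that switches off p53 signalling, was called in LK2 alone (-0.26) by the authors' deposited table and averaged -0.13 ± 0.18 (limma's adjusted p = 0.196). By the meta-analysis, which weights lines by their standard errors, PPM1D was called lower at -0.17 (adjusted p = 0.0005). Cochran's Q of PPM1D was 6.58 (Benjamini-Hochberg adjusted p = 0.715), so no difference between lines beyond their standard errors was detected for it.

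DNA repair held DDB2, the target called in the most lines (9 of 10). DDB2, the subunit that recognises ultraviolet damage for nucleotide excision repair, averaged -0.998 ± 0.42 (SD over 10 lines), was negative in all 10 lines and had limma's adjusted p = 0.000154. The LUAD values of DDB2 in the authors' deposited table were -0.53 in NCIH1563, -1.83 in NCIH1975, -0.40 in NCIH522 and -1.21 in PC9. In the LUSC lines DDB2 had -1.36 in EBC1, -0.78 in LK2, -1.13 in NCIH226, -0.78 in NCIH520, -0.83 in SKMES1 and -1.13 in SW900 by the authors' deposited table. Every line but NCIH522 was called lower, and NCIH522 had an adjusted p of 0.514 by DESeq2 in the authors' deposited table. The depth of the fall still differed between lines beyond their standard errors (Cochran's Q 38.8, Benjamini-Hochberg adjusted p = 4.63e-05). Corrected for length and GC content, the mean was -1.03 with limma's adjusted p = 9.03e-05, and no exon of DDB2 overlaps another gene in GENCODE 29.

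None of the remaining 5 genes grouped with DNA repair passed limma across lines. The meta-analysis called POLH (-0.25, adjusted p = 0.00674), ASCC3 (-0.24, adjusted p = 0.0142) and XPC (-0.21, adjusted p = 0.0195) lower. XPC, the DDB2 partner in damage recognition, was called lower in LK2 (-0.39), NCIH520 (-0.43) and SW900 (-0.41) by the authors' deposited table. POLH, the translesion polymerase eta, was called lower in EBC1 (-0.44) and NCIH226 (-0.57) by the authors' deposited table, and its LUSC lines alone averaged -0.35 with limma's adjusted p = 0.00742. ASCC3, a helicase used in alkylation repair, was called lower in NCIH1563 (-1.10), LK2 (-0.23), SKMES1 (-0.26) and SW900 (-0.31) in the authors' deposited table. RRM2B, a ribonucleotide reductase subunit, was called once in the authors' deposited table, higher in EBC1 (0.34). AEN, a nuclease that promotes apoptosis, was called higher in NCIH1563 (0.79) and NCIH226 (0.33) and lower in EBC1 (-0.86), SKMES1 (-0.40) and SW900 (-0.34) in the authors' deposited table. Over the 6 genes, 3 of 60 values were called higher and 21 lower, against 13.7% and 13.8% of all values. Without DDB2 these counts were 3 and 12 of 50. They include 2 higher and 3 lower calls of AEN, which could also be placed with the apoptosis genes.

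**Figure D2:**
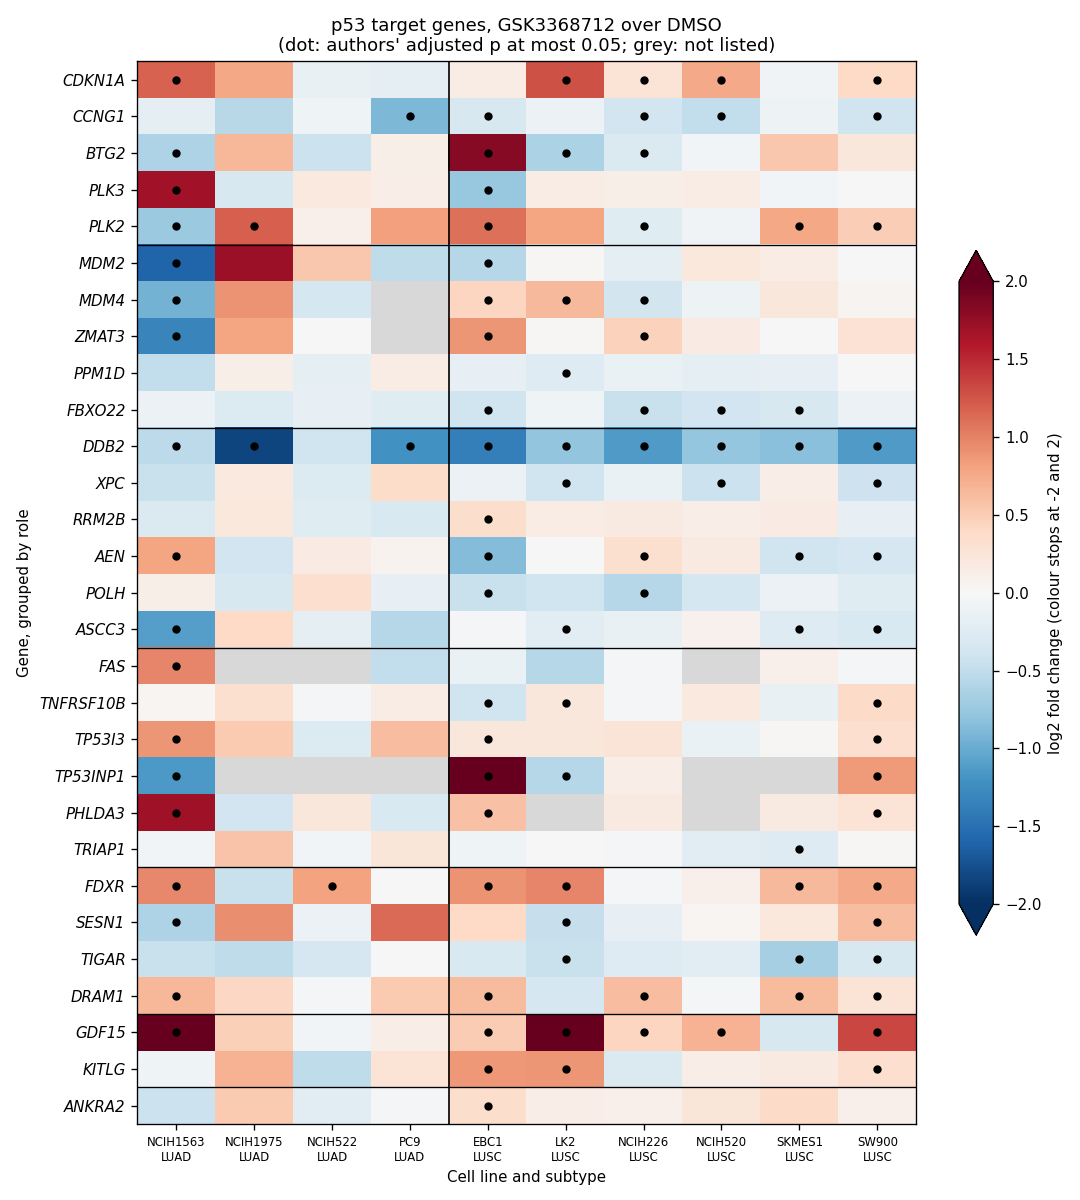
Log2 fold change of GSK3368712 over DMSO for the 29 p53 targets with values (rows, grouped by role) in 10 lines (columns, LUAD left of LUSC). Dots mark an authors' adjusted p of at most 0.05, grey marks genes not listed, and the colour stops at -2 and 2. DDB2 is the darkest of the rows that are blue in every line, while MDM2, ZMAT3 and TP53INP1 change colour between lines.

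Of 50 values of death receptor and apoptosis genes, 11 were called higher and 4 lower, against 13.7% and 13.8% of all values. None of the 3 with values in all lines passed limma across lines, 1 of them (TP53I3) had an unadjusted p under 0.05, and the meta-analysis called that 1. TP53I3, a quinone oxidoreductase induced before apoptosis, averaged 0.27 ± 0.34 (limma's adjusted p = 0.0769) and was called higher in NCIH1563 (0.88), EBC1 (0.23) and SW900 (0.34) in the authors' deposited table. TNFRSF10B, a receptor for the death ligand TRAIL, was called higher in LK2 (0.23) and SW900 (0.39) and lower in EBC1 (-0.39) in the authors' deposited table. FAS, the receptor of FAS ligand, was listed in 7 lines and called only in NCIH1563 (0.98) by the authors' deposited table. PHLDA3, a repressor of AKT signalling, was called higher in NCIH1563 (1.70), EBC1 (0.59) and SW900 (0.28) by the authors' deposited table. TP53INP1, a stress protein of cell death and autophagy, was listed in 5 lines, and its values in the authors' deposited table were -1.15 in NCIH1563, 2.51 in EBC1, -0.57 in LK2, 0.13 in NCIH226 and 0.85 in SW900. All but NCIH226 were called, in both directions. TRIAP1, an inhibitor of apoptosis, was called once in the authors' deposited table, lower in SKMES1 (-0.26).

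In the group of metabolism, redox and autophagy genes, FDXR and DRAM1 rose and TIGAR fell across lines, while SESN1 was called both ways. Of the group's 40 values, 12 were called higher and 5 lower, against 13.7% and 13.8% of all values. FDXR, the mitochondrial ferredoxin reductase, averaged 0.47 ± 0.51 (SD over 10 lines), positive in 8 lines, with limma's adjusted p = 0.0296. The LUAD values of FDXR in the authors' deposited table were 0.97 in NCIH1563, -0.44 in NCIH1975, 0.81 in NCIH522 and 0.01 in PC9. Its LUSC values in the authors' deposited table were 0.90 in EBC1, 0.98 in LK2, -0.03 in NCIH226, 0.11 in NCIH520, 0.66 in SKMES1 and 0.76 in SW900. The 10 values of FDXR thus split into 6 between 0.66 and 0.98, all of them called higher, and 4 at 0.11 or less that were not called. FDXR was the only target called in NCIH522 by the authors' deposited table (adjusted p = 0.0174 by DESeq2).

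DRAM1, a lysosomal membrane protein that promotes autophagy, averaged 0.34 ± 0.35 (SD over 10 lines, limma's adjusted p = 0.0350). By the authors' deposited table, DRAM1 ran from -0.33 in LK2 through a median of 0.47 to 0.66 in NCIH1563 and was called higher in NCIH1563, EBC1, NCIH226, SKMES1 and SW900. TIGAR, a phosphatase that lowers glycolytic flux, averaged -0.35 ± 0.18 (SD over 10 lines, limma's adjusted p = 0.00341). TIGAR was negative in 9 lines, from -0.66 in SKMES1 to 0.00 in PC9, and was called lower in LK2, SKMES1 and SW900 in the authors' deposited table. No difference between lines beyond their standard errors was detected for TIGAR (Cochran's Q 8.29, Benjamini-Hochberg adjusted p = 0.550). SESN1, a sestrin that restrains mTORC1, was called higher in SW900 (0.62) and lower in NCIH1563 (-0.62) and LK2 (-0.46) in the authors' deposited table.

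**Figure D3:**
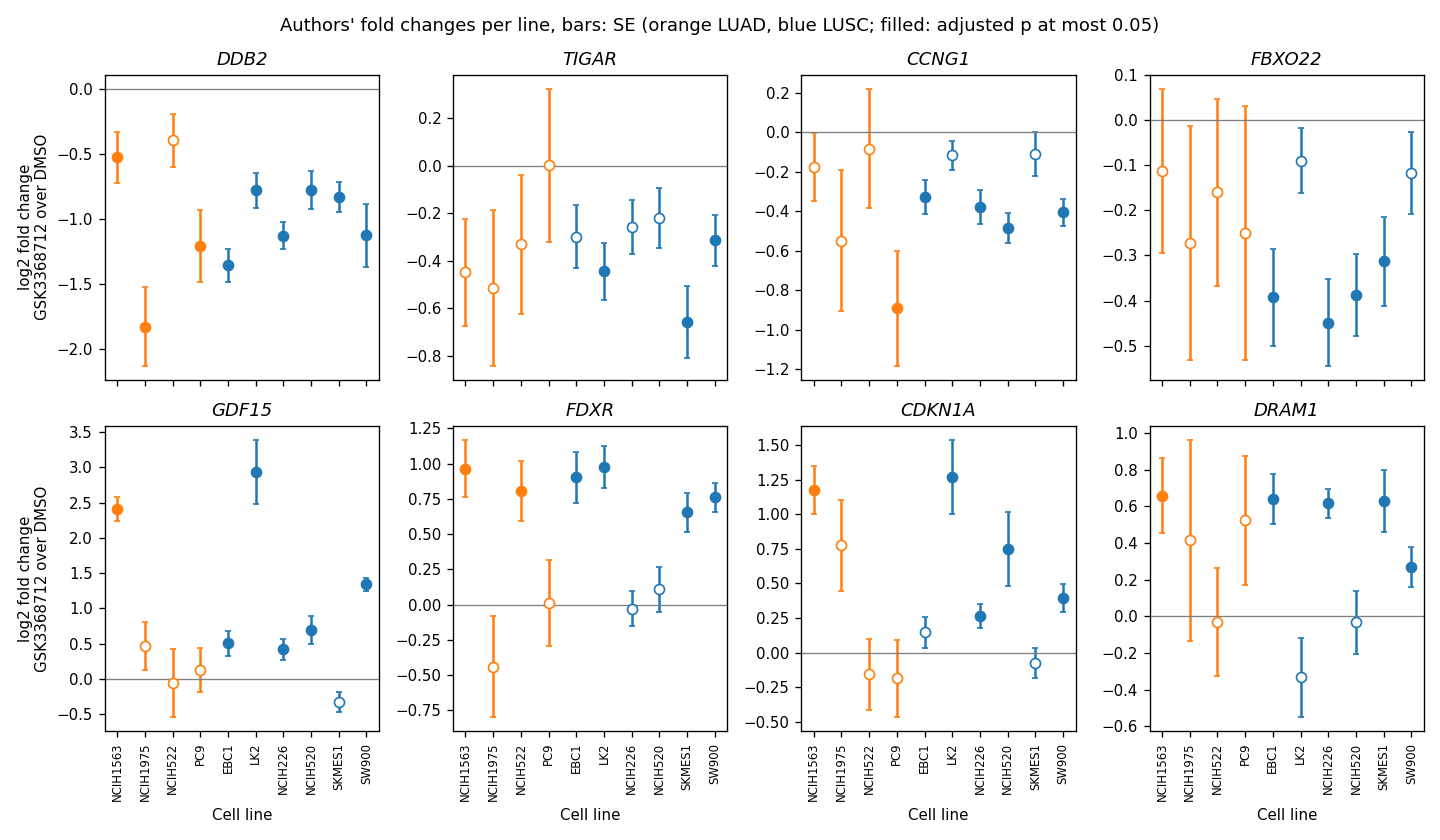
Log2 fold change of GSK3368712 over DMSO with its SE in each of 10 lines for the 4 p53 targets called lower across lines (upper panels) and the 4 called higher (lower panels). Orange marks LUAD and blue LUSC, filled points have an authors' adjusted p of at most 0.05, and vertical scales differ between panels. All 10 DDB2 values lie below 0, whereas each of the 4 higher genes has at least 2 lines at or below 0.

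Both secreted ligands had positive means, and 9 of their 20 values were called higher and none lower, against 13.7% and 13.8% of all values. GDF15, a stress cytokine of the TGF-beta superfamily, averaged 0.85 ± 1.06 (SD over 10 lines), positive in 8 lines, with limma's adjusted p = 0.0435. The LUAD values of GDF15 in the authors' deposited table were 2.41 in NCIH1563, 0.47 in NCIH1975, -0.06 in NCIH522 and 0.13 in PC9. Its LUSC values in the authors' deposited table were 0.51 in EBC1, 2.93 in LK2, 0.43 in NCIH226, 0.69 in NCIH520, -0.32 in SKMES1 and 1.34 in SW900. NCIH1563, LK2 and SW900 stand above the other 7 lines, and the subtypes overlap. The level of GDF15 was 128 ppm in NCIH1563 and 0.984 ppm in LK2 by the authors' deposited table, so its 2 largest changes came at its highest and its lowest level. KITLG, the ligand of the receptor kinase KIT, averaged 0.25 ± 0.47 (limma's adjusted p = 0.197) and was called higher in EBC1 (0.86), LK2 (0.89) and SW900 (0.33) in the authors' deposited table. The level of KITLG spanned 3.43 ppm in NCIH1563 to 735 ppm in LK2 and 1059.6 ppm in NCIH520 by the authors' deposited table. ANKRA2, an ankyrin repeat protein, was called once in the authors' deposited table, higher in EBC1 (0.36).

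**Figure D4:**
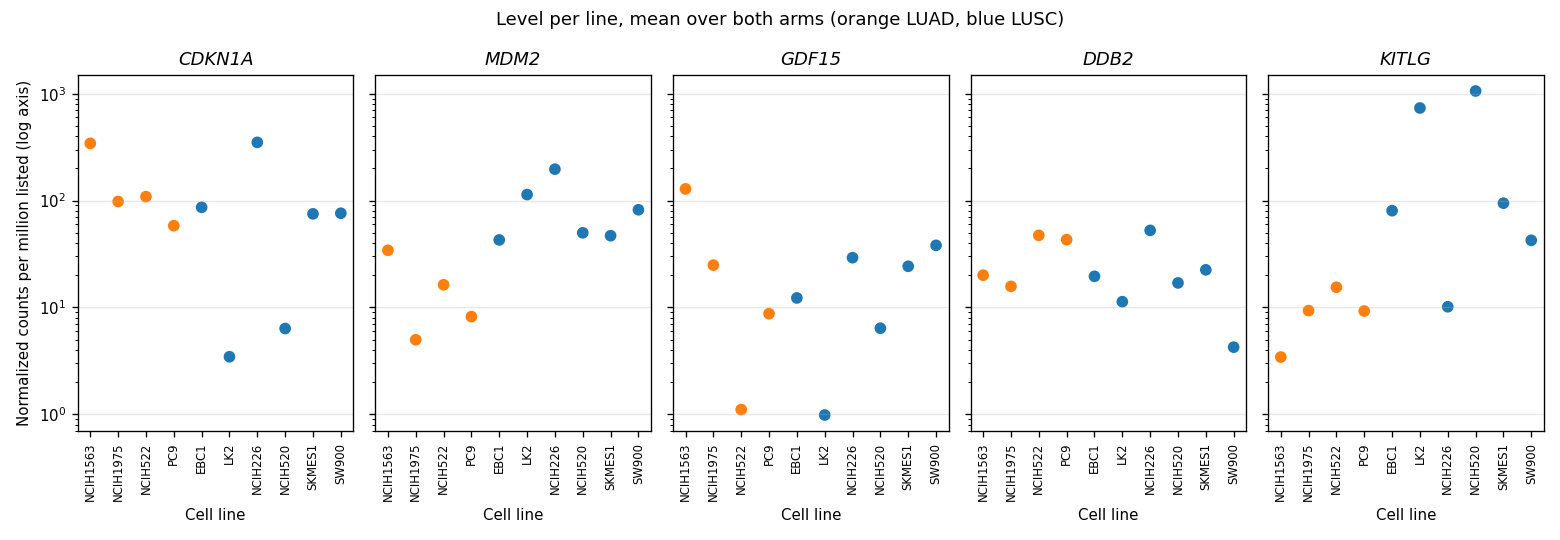
Level of 5 p53 targets in 10 lines, in ppm of the mean normalized counts listed in the line, over both arms, on a log axis. Orange marks LUAD and blue LUSC lines, which the authors normalized separately, so levels are comparable between lines only roughly. CDKN1A and GDF15 are lowest in LK2, and KITLG is highest in LK2 and NCIH520.

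The number of targets called differed by line, as did that of all genes. By the authors' deposited table, 18 of 29 listed targets passed in NCIH1563, 9 higher and 9 lower, against 23.3% of all genes higher and 24.8% lower there. In EBC1, 13 of 29 targets were higher and 8 lower, against 23% and 23.4% of all genes in the authors' deposited table. In SW900, 11 of 29 were higher and 6 lower, against 18% and 17.7% in the authors' deposited table. For LK2, the authors' deposited table has 6 of 28 higher and 8 lower, against 19.9% and 19.5%. NCIH226 had 5 of 29 higher and 7 lower, against 15.5% and 15.8% in the authors' deposited table. SKMES1 had 3 of 28 higher and 6 lower, against 15.8% and 15.6% in the authors' deposited table. NCIH520 had 2 of 26 higher and 4 lower, against 11.4% and 12.3% in the authors' deposited table.

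Few targets were called in the other LUAD lines. NCIH1975 had 1 of 27 higher (PLK2) and 1 lower (DDB2), against 4.33% and 3.58% of all genes in the authors' deposited table. NCIH522 had 1 of 27 higher (FDXR) and 0 lower by DESeq2, with 1 lower at an unadjusted p under 0.05, against 0.912% and 0.75% in the authors' deposited table. PC9 had 0 of 26 higher by DESeq2, with 3 at an unadjusted p under 0.05, and 2 lower (DDB2 and CCNG1), against 2.56% and 1.92% in the authors' deposited table. The median SE over genes, wider than in any LUSC line, was 0.316 in NCIH1975, 0.244 in NCIH522, 0.294 in PC9 and 0.201 in NCIH1563. The median absolute log2 fold change over listed genes was 0.349 in NCIH1975, 0.193 in NCIH522, 0.327 in PC9 and 0.519 in NCIH1563. The part of either in these counts was not tested. Over all lines, 51 of 278 values (18.3%) were called higher and 51 lower, against 13.7% and 13.8% of all values in the authors' deposited table. Of the 24 targets with values in all lines, 6 were called in both directions, 8 only higher and 10 only lower, against 21.9%, 31.4% and 35.3% of all 9339 such genes.

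**Figure D5:**
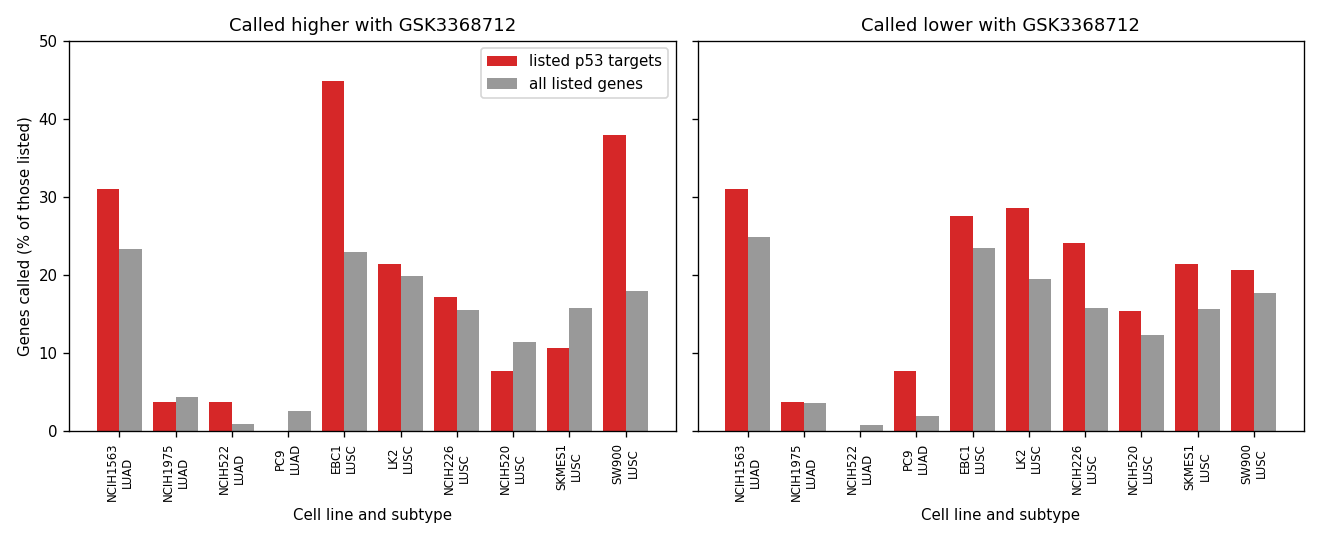
Share of listed genes called higher (left) or lower (right) with GSK3368712 at the authors' adjusted p of at most 0.05, in % of the genes listed in each line. Red bars are the listed p53 targets (26 to 29 per line) and grey bars all listed genes. Red exceeds grey most for higher calls in EBC1 and SW900.

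The lines differed beyond their standard errors in the response of most targets, as they did for most genes. These standard errors reflect libraries whose spread may be technical, so such a difference may still lie within the spread between cultures. Cochran's Q, which sets the spread between lines against the authors' standard errors, passed for 18 of the 24 targets at an adjusted p of at most 0.05, against 65.9% of all genes. Its largest values among them were 215 for GDF15, 183 for PLK2, 124 for AEN and 108 for KITLG. The 6 targets that did not pass were TIGAR, PPM1D, ANKRA2, TRIAP1, FBXO22 and RRM2B. At 1 or beyond on the log2 scale in either direction, NCIH1563 had 8 of 29 listed targets (19.8% of all genes listed there), NCIH1975 3 of 27 (11%) and EBC1 4 of 29 (10.4%). PC9, LK2 and SW900 had 2 targets each (7.09%, 7.13% and 6.62% of genes), NCIH226 had 1 (6.15%), and NCIH522, NCIH520 and SKMES1 had 0 (3.56%, 3.73% and 5.70%). Corrected for length and GC content, the NCIH1563 values were 1.83 for GDF15, 0.79 for CDKN1A, 1.23 for PLK3, 0.50 for FDXR, 0.46 for TP53I3, -0.88 for MDM2, -0.50 for ASCC3 and -0.23 for SESN1. These all moved toward 0. Others moved away from 0, among them DRAM1 (0.66 to 0.90) and AEN (0.79 to 0.93), and FBXO22 changed sign (-0.11 to 0.39).

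No target differed between LUAD and LUSC lines by limma (0 of 24, against 0.0107% of all genes, which is 1 gene). At an unadjusted p under 0.05, 1 target and 511 of 9339 genes passed. That target was POLH, at -0.01 ± 0.30 in LUAD and -0.35 ± 0.16 in LUSC lines (SD over lines), a difference of 0.34 with limma's adjusted p = 0.898. DDB2 was close in both subtypes, at -0.99 ± 0.66 in LUAD and -1.002 ± 0.24 in LUSC lines.

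As a set, the targets did not rise and fall together across lines, although some pairs had strong correlations of either sign. The mean Pearson correlation over 276 pairs of targets was -0.01 across 10 lines, against 0.01 over all pairs of the 9339 genes, as a description with no test. Correlations of opposite sign cancel in such a mean. CDKN1A and MDM2 had no stable relation, with r = -0.10 and rho = 0.03, and r = 0.22 after the correction for length and GC content, 0.33 without NCIH1563 and 0.53 without the 2 lines farthest from the median of CDKN1A. The highest correlations were SESN1 with PPM1D (r = 0.93, rho = 0.88), PLK3 with AEN (r = 0.88, rho = 0.84) and CDKN1A with GDF15 (r = 0.87, rho = 0.84). Without the 2 lines farthest from the median of the first gene, these were 0.83, 0.78 and 0.63. After the correction for length and GC content, which all genes of a line share, they were 0.42, 0.90 and 0.82. The lowest correlations were BTG2 with AEN (r = -0.87, rho = -0.77) and PLK2 with AEN (r = -0.87, rho = -0.83). These were -0.83 and -0.92 after the correction. Without the 2 lines farthest from the median of the first gene, they were -0.92 and -0.70.

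Related genes outside the 30 were followed as lists. Of the p53 relatives, TP63 was listed in 4 lines and called only in SW900 (1.04), and TP73 was listed in 7 lines and called in none, by the authors' deposited table. CDKN2A, whose ARF product inhibits MDM2, was listed in 7 lines of the authors' deposited table, negative in all 7 and called in none.

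Of 22 upstream regulators of p53, 20 were tested and none passed limma, against 9.5% higher and 12.1% lower of all genes. Their median was 0.08, 4 had an unadjusted p under 0.05, against 34.6% of all genes, and the meta-analysis called 3 higher and 2 lower, against 18.2% and 22.0%. The closest were CREBBP (mean 0.33, limma's adjusted p = 0.0623), RPL11 (0.22, 0.0653), USP10 (-0.18, 0.0991) and KAT5 (0.17, 0.139). Among 29 other p53 targets with values in all lines, 2 rose and 2 fell, against 9.5% and 12.1% of all genes, and the median was 0.05. Those that rose were ABHD4 (0.54 ± 0.34, limma's adjusted p = 0.00250) and the apoptosis gene BBC3 (0.70 ± 0.64, limma's adjusted p = 0.0115). Those that fell were SCO2, a cytochrome oxidase assembly factor (-0.39 ± 0.28, limma's adjusted p = 0.00731), and PIDD1, a death domain protein (-0.29 ± 0.20, limma's adjusted p = 0.0113).

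Of 34 cell cycle genes that p21 represses through the DREAM complex, 33 had negative means, against 49.1% of all genes, with a median of -0.19. By limma 3 fell, against 12.1% of all genes, 13 had an unadjusted p under 0.05, against 34.6%, and the meta-analysis called 20 lower, against 22.0%. The 3 were BUB1 (-0.49 ± 0.33, limma's adjusted p = 0.00372), KIF23 (-0.27 ± 0.23, limma's adjusted p = 0.0264) and AURKB (-0.38 ± 0.42, limma's adjusted p = 0.0388), and PLK4 followed at -0.30 (limma's adjusted p = 0.05001). With each line left out in turn, BUB1 kept its call in 10 of 10 fits, KIF23 in 5 (lost without EBC1, LK2, NCIH226, SKMES1 or SW900) and AURKB in 1 (kept without NCIH1563). Of the 4 type I methyltransferase genes tested, PRMT3 fell (-0.41 ± 0.25, limma's adjusted p = 0.00364), whereas PRMT1 (0.10, 0.416), CARM1 (0.11, 0.502) and PRMT2 (0.19, 0.0753) did not pass.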

How the data were processed

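Per the labels' protocols, polyadenylated RNA was made into stranded paired-end libraries. Per the submitters' processing notes, reads were handled with FastQC, Salmon 0.12.0, DESeq2 and GRCh38. The settings, the annotation and whether counting used strand are not given in the sources used here. The deposited file is the authors' comparison table, with log2 fold changes and their standard errors on a log2 scale, a Wald statistic (a score), adjusted p-values and mean normalized counts (a signal). No value per library was analysed, so no count model or counting interval is given, and the direction of the fold changes rests on the row labels.

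The members and the gene lists were chosen with earlier results of these data known. All 30 members, TP63, TP73, CDKN2A and PRMT1 and up to 4 genes per other list, those with the smallest p, are named, and 1 further gene that the rule names is not reported here. Calls within a line use the authors' deposited adjusted p-values at 0.05. In R 4.3.3, limma 3.58.1 tested the mean log2 fold change over 10 lines and LUAD minus LUSC, across all 9339 genes with values in every line, with Benjamini-Hochberg adjustment. Cochran's Q used the deposited standard errors. A natural spline with 4 degrees of freedom for length and for GC content (GENCODE 29) was fitted per line as an alternative chosen after seeing the data. Each test was run on simulated normal values with a known shift. For limma, each gene had the same SD in all lines, so that check does not cover unequal spread between lines. Other computation used Python 3.11.15, scipy 1.17.1 and matplotlib 3.10.9.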

Additional observations from a re-analysis of the deposited data

Results flagged for a closer look

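Among 48 genes examined, 8 had a line far from the others. Chance marks about 1 gene in 20 by this measure only where all lines have an equal, normal spread. The lines here did not, as the SD of log2 fold changes over genes was 0.708 in NCIH1563 and next 0.515 in NCIH1975. The share of all genes with such a far line was not computed. In the authors' deposited table, 7 of the 8 far values belong to NCIH1563. Among the p53 targets these were PHLDA3 at 1.70 (next line 0.59), PLK3 at 1.68 (next 0.19), FAS at 0.98 (next 0.10) and ZMAT3 at -1.32 (next 0.00), all log2 fold changes of GSK3368712 over DMSO in the authors' deposited table. The other target was BTG2 in EBC1, at 1.83 with the next line at 0.66 in the authors' deposited table. Among the methyltransferase genes, NCIH1563 stood apart for CARM1 at 0.98, PRMT2 at 0.70 and PRMT3 at -1.02 in the authors' deposited table. The trend of the fold changes with transcript length and GC content was steepest in NCIH1563, and PLK3 there was 1.23 after the correction for both. The part of that trend in the other values was not tested.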

How the results depend on the processing

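No paired analysis was possible because the values used are 1 comparison per line, with no value per library. The count of targets called lower across lines (4) was 8 by random-effects meta-analysis and 0 in the LUAD lines alone. The count called higher (4) was 1 among the top 75% of genes by expression, 2 with genes in at least 7 lines, 0 by an ordinary one-sample test, 2 in the LUSC lines alone, 0 in the LUAD lines alone and 0 to 4 when each line was left out. The 2 in the LUSC lines were FDXR and ANKRA2 (mean 0.22, limma's adjusted p = 0.0313), and ANKRA2 was not called across all lines. CDKN1A, GDF15 and DRAM1 lost their calls there. GDF15 and DRAM1 were not among the top 75% of genes and so could not be called there, and CDKN1A had limma's adjusted p = 0.0511. The subtype fits hold fewer lines. The causes of the moves were not tested. All genes called higher and lower numbered 1698 and 2053 by meta-analysis, 561 and 707 in the top 75% and 1 and 3 in the LUAD lines alone. The 4 targets called lower lost their calls in the LUAD lines alone, and FBXO22 also under the length and GC correction.

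Means near 0 changed sign in some fits, and none passed with the changed sign. MDM2 was 0.12 when each line was scaled by its SD, 0.036 in the LUAD lines and -0.22 to 0.15 with a line left out. RRM2B was -0.16 in the LUAD lines and -0.022 to 0.051 with a line left out. BTG2 was -0.071 in the LUAD lines and -0.056 to 0.22 with a line left out. PLK3 was -0.066 in the LUSC lines and -0.043 to 0.23 with a line left out. AEN was 0.16 in the LUAD lines and -0.14 to 0.045 with a line left out. TRIAP1 was -0.059 by meta-analysis, -0.036 when scaled, -0.093 in the LUSC lines and -0.047 to 0.045 with a line left out. ANKRA2 was -0.039 in the LUAD lines. Counts between lines (18 or 19), between subtypes (0 throughout) and of calls over all lines together (45 to 51 higher, 48 to 51 lower) stayed within 1.5 times. Within lines, only the counts of NCIH520 (0 higher) and PC9 (1 lower) moved more, both with the top 75% of genes. The number of lines, 4 in LUAD, limits what a fit across them could detect. The wider standard errors there bear on calls within a line, as limma across lines does not use them. The part of either in the missing LUAD calls was not tested.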
